A study of Mus musculus with 10 samples.

Results

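The SLC26 family of anion transporters was followed through the adult cochlear hair cell transcriptomes, with prestin (Slc26a5) as its best known member in this tissue. The members were the 10 genes Slc26a1 to Slc26a8, Slc26a10 and Slc26a11, picked by symbol from a table of 48440 genes. Outer hair cells (OHCs) gave 3 libraries and inner hair cells (IHCs) gave 2, all from CBA/J mice of 28 to 32 days by the labels. Each library held about 1000 solitary cells that were picked by their shape under the microscope and pooled over several mice. No treatment was applied in either group, and the 2 lanes of a library, which are repeats of the same cDNA, were averaged. In the labels all OHC libraries share a number prefix and a second index sequence, and all IHC libraries share different ones. What the prefix stands for is not given in the sources used here. A difference in preparation that goes with these fields cannot be told apart from cell type.

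SLC26 proteins carry chloride, bicarbonate, sulfate, iodide or oxalate across membranes, mostly as exchangers. Prestin is the exception in mammalian hearing: it sits densely packed in the lateral wall of the OHC, changes its area with membrane voltage and so drives the length changes of the cell that amplify sound. Pendrin (Slc26a4) exchanges chloride, bicarbonate and iodide, is known in the cochlea from epithelial cells around the scala media rather than from hair cells, and its loss causes deafness with an enlarged vestibular aqueduct. IHCs turn sound into transmitter release onto the auditory nerve and do not move in this way.

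Levels are given in RPKM, reads per kilobase of exon per 1 M reads, so that members can be ordered within a cell type. The reads behind each value were worked back from the RPKM value, the exon length and the reads of the lane, which ran to 19987044 to 23083994 per library. Listed genes held 86.6% to 86.8% of the reads of OHC lanes and 92.8% of those of IHC lanes. The marker lists were chosen with earlier results of these data known, so they are no independent check of the labels. The summed level of 10 OHC markers was 14043 to 14969 RPKM in OHC libraries and 438 to 458 RPKM in IHC libraries. That of 8 IHC markers was 308 to 319 RPKM in OHC libraries and 5725 to 5809 RPKM in IHC libraries. Most of the OHC marker sum was Ocm, at 12726 to 13579 RPKM in OHC libraries. Most of the IHC marker sum was Calb2, at 5080 to 5159 RPKM in IHC libraries. In OHC 1, IHC 1 and IHC 2 the reads of 727, 684 and 685 genes differed between both lanes beyond counting noise, against 1 gene in OHC 2 and 0 in OHC 3 (chi-square test, Benjamini-Hochberg adjustment). For the SLC26 members, 31 comparisons of both lanes were made by an exact binomial test, with the adjustment over these 31. Of these, 0 had an adjusted p under 0.05 and 2 an unadjusted p under 0.05. Libraries of bulk cells do not separate fewer cells of a type from less RNA per cell.

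Slc26a5 was the most abundant member in both cell types and was far higher in OHCs. Its level was 544, 553 and 550 RPKM in the OHC libraries, against 10.1 and 8.91 RPKM in the IHC libraries. All 3 OHC libraries lay far above both IHC libraries, and the spread within a cell type was small beside the gap. The means were 549 ± 4.93 RPKM in OHCs (SD, n = 3) and 9.51 ± 0.845 RPKM in IHCs (SD, n = 2), a ratio of 57.7. The log2 difference, OHC minus IHC on the log2(RPKM + 0.1) scale, was 5.84 (SE 0.0544, 95% interval 5.70 to 5.97), with an adjusted p of 8.02e-08 by limma. Of 16462 genes tested, 19 had a log2 difference at least as large, Slc26a5 included. Its place among the genes detected was 57 of 18893 in OHCs and 4860 of 17621 in IHCs.

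The values of Slc26a5 rested on 38542, 35700 and 33783 reads in the OHC libraries, and on 691 and 558 reads in the IHC libraries. Reads of Slc26a5 thus made up 0.167% to 0.170% of an OHC library and 0.00274% to 0.00311% of an IHC library. Single lanes ranged a little wider than the libraries, at 542 to 558 RPKM in 6 OHC lanes and 8.83 to 10.5 RPKM in 4 IHC lanes. The gene lies on the minus strand of chromosome 5 of GRCm38, at chr5:21810655-21865604, and its 3072 exon bases share none of their sequence words of 31 bases with a transcript of another gene. In coding sequence its aligned bases matched those of the other members at 57.7% (Slc26a7) to 61.5% (Slc26a3).

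The promoters of Slc26a5 and Slc26a4, the members with the highest levels in both cell types, are printed here because both genes were higher in OHCs. The RefSeq sequences run from 250 bases before to 50 bases after the start of the gene on GRCm38.p6, at chr5:21865555-21865854 and chr12:31559935-31560234, both on the minus strand and read 5′ to 3′. Capitals mark matches, on either strand, to TATAAA (the TATA box), AGGTCA (bound by nuclear receptors such as the thyroid hormone receptors), TGGGAA (the core bound by Ikaros factors) and AGATAA (the GATA motif).
Slc26a5: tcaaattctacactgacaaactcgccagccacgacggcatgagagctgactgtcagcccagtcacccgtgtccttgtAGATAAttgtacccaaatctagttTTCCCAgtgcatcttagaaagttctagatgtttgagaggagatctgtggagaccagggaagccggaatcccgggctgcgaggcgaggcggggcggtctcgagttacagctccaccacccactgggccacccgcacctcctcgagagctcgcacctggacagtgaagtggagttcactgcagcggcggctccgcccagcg
Slc26a4: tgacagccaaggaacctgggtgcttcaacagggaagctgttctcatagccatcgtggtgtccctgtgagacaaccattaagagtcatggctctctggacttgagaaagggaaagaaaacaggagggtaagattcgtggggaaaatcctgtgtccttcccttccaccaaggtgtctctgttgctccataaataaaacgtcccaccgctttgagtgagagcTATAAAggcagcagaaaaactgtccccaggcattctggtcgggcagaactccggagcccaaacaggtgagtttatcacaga
Slc26a5 held no TATAAA and no AGGTCA. It held AGATAA from 173 bases before the start and, on the reverse strand, TGGGAA from 149 bases before the start. Slc26a4 held TATAAA from 31 bases before the start and none of the other 3 motifs. The shares of all 32851 promoters in the table with a match are 13.6% for TATAAA, 16.3% for AGGTCA, 25.6% for TGGGAA and 11.2% for AGATAA. The E-box CANNTG, left in lower case, was in both promoters, once each, and in 72.3% of all promoters. The Slc26a5 promoter had 18 CG pairs and that of Slc26a4 had 6, beside a median of 7 over all promoters. Promoters of 7 of the 10 members were matched. Such matches describe the letters of these windows only.

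**Figure D1:**
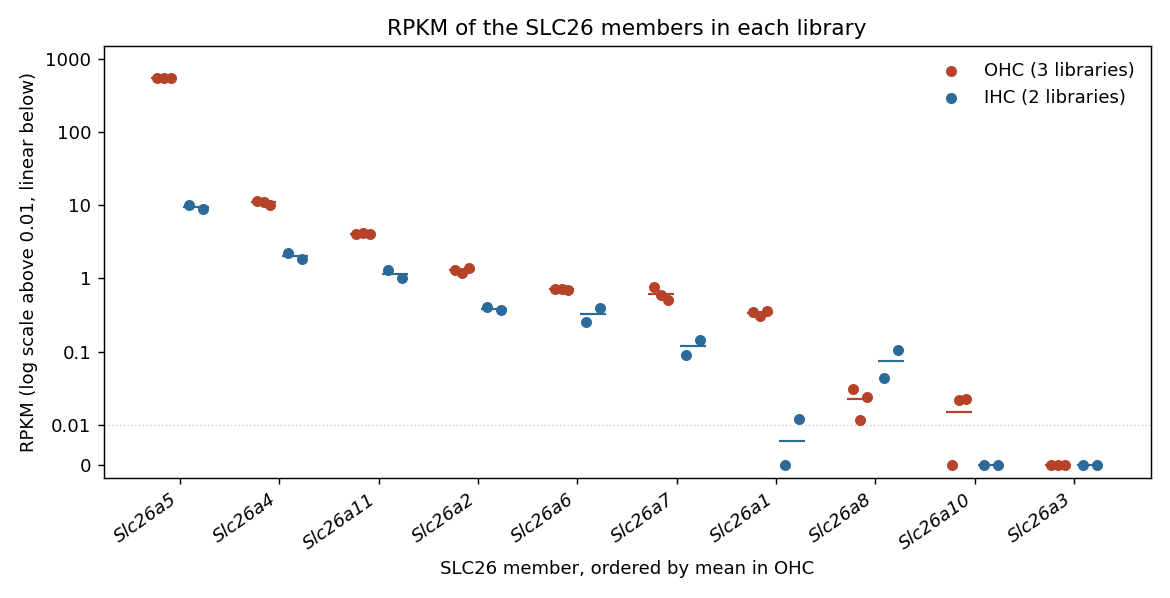
RPKM of each SLC26 member (vertical axis, logarithmic above 0.01 and linear below) in 3 OHC libraries and 2 IHC libraries, with a line at each mean. Slc26a5 stood at 544 to 553 RPKM in OHCs and 8.91 to 10.1 RPKM in IHCs, and Slc26a8 was the one member with all IHC points above all OHC points.

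Pendrin was the member next in level. Slc26a4 had 11.4, 11.1 and 10.2 RPKM in the OHC libraries, against 2.25 and 1.84 RPKM in the IHC libraries. The groups did not overlap, and the OHC mean of 10.9 ± 0.646 RPKM (SD, n = 3) was 5.33 times the IHC mean of 2.04 ± 0.294 RPKM (SD, n = 2). The log2 difference was 2.36 (adjusted p = 1.26e-05, limma). With 2153 reads over the OHC libraries and 269 over the IHC libraries, counting error was small beside the difference (ratio of read rates 5.32, exact 95% counting interval 4.69 to 6.07). Slc26a3, the chloride and bicarbonate exchanger of the colon, lies on the same chromosome 12 with 45909 bases between both genes. It was listed at 0 in all 10 lanes, while its neighbour was clearly detected in all of them. A count of 3 reads would have been 0.0204 to 0.0236 RPKM of Slc26a3 per library, so a lower level was not detectable at this depth.

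The sulfate carriers of the family were also higher in OHCs, at far lower levels than prestin. Slc26a11, described as a sulfate transporter and chloride channel, had 4.0, 4.21 and 4.02 RPKM in the OHC libraries, against 1.31 and 1.01 RPKM in the IHC libraries. The OHC values were tightly grouped and all lay above both IHC values (ratio of means 3.52, log2 difference 1.74, adjusted p = 7.51e-05, limma). Slc26a2, the sulfate transporter whose loss causes chondrodysplasias, had 1.31, 1.18 and 1.39 RPKM in the OHC libraries, against 0.399 and 0.372 RPKM in the IHC libraries. Again the groups did not overlap, with a ratio of means of 3.36 and a log2 difference of 1.52 (adjusted p = 1.77e-04, limma). Slc26a1, the sulfate and oxalate exchanger of liver and kidney, had 0.342, 0.305 and 0.358 RPKM in the OHC libraries, against 0 and 0.0121 RPKM in the IHC libraries.

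Slc26a1 was nearly absent from the IHC libraries: 87 reads over the 3 OHC libraries stood against 1 read over both IHC libraries. The ratio of read rates was 57.9, with an exact 95% counting interval of 10.1 to 2312. The fitted log2 difference of 2.04 (adjusted p = 2.05e-04, limma) depends on the pseudocount and was 4.53 with 0.01 RPKM and 0.41 with 1 RPKM. Slc26a1 passed the filter on low values through the OHC libraries alone. Its exons share 141 bases, 3.48% of their length, with Idua (alpha-L-iduronidase) on the opposite strand, and whether the counting used strand is not given in the sources used here. Idua itself was at 4.62 RPKM in OHCs and 5.26 RPKM in IHCs. Slc26a11 starts 21 bases from the start of Sgsh (sulfamidase), which is read from the opposite strand. Sgsh was at 3.32 ± 0.132 RPKM in OHCs (SD, n = 3) and 1.31 ± 0.204 RPKM in IHCs (SD, n = 2), so that both genes of this pair were higher in OHCs (log2 difference of Sgsh 1.28, adjusted p = 2.02e-04, limma).

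Both remaining exchangers of chloride with bicarbonate were weak but measurable. Slc26a6, which also carries oxalate, had 0.713, 0.712 and 0.703 RPKM in the OHC libraries, against 0.249 and 0.399 RPKM in the IHC libraries. Its OHC values were almost equal while its IHC values lay further apart, and the ratio of means was 2.19 (log2 difference 0.95, adjusted p = 0.00576, limma). From the second lanes alone the log2 difference was 0.89 and the call was lost (adjusted p = 0.0532). Slc26a7, known from kidney, stomach and thyroid, had 0.758, 0.587 and 0.506 RPKM in the OHC libraries, against 0.0910 and 0.145 RPKM in the IHC libraries. Its groups did not overlap although its spread in OHCs was the widest of the members tested relative to the mean (ratio of means 5.24, log2 difference 1.72, adjusted p = 9.64e-04, limma).

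Slc26a8 and Slc26a10 were too low to be tested. Slc26a8, a transporter of sperm cells, was the one member with higher values in IHCs, at 0.0310, 0.0115 and 0.0239 RPKM in the OHC libraries, against 0.0430 and 0.106 RPKM in the IHC libraries. These values stand for 6 reads in OHCs and 13 in IHCs. The ratio of read rates, IHC over OHC, was 3.26, with an exact 95% counting interval of 1.16 to 10.5 that covers counting error only. When genes of any level were let into the fit, its log2 difference was -0.49 and did not pass (adjusted p = 0.0903, limma). Slc26a10, whose transport function is little known, had 0, 1 and 1 reads in the OHC libraries, against 0 and 0 in the IHC libraries, counted with the shortest length that gives whole reads. Both cell types were thus under 3 reads per library, and 17.8% of its exon bases overlap those of B4galnt1 on the other strand, which was at 19.0 RPKM in OHCs and 11.5 RPKM in IHCs.

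Counted over the family, 7 of the 10 members were tested, 7 were higher in OHCs and 0 higher in IHCs by limma, and 0 were higher in IHCs at an unadjusted p under 0.05 or by limma-voom on the recovered reads. Slc26a1 is among the 7 through its OHC values alone. Of all genes tested, 34.4% were higher in OHCs and 34.4% higher in IHCs, so calls in either direction were common. The median log2 difference was 1.74 over the 7 members and 0.01 over all genes tested. The count was 7 without each library in turn and 6 from the second lanes alone. Where 1 RPKM in at least 2 libraries was required, 4 members were tested and 4 were higher in OHCs.

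**Figure D2:**
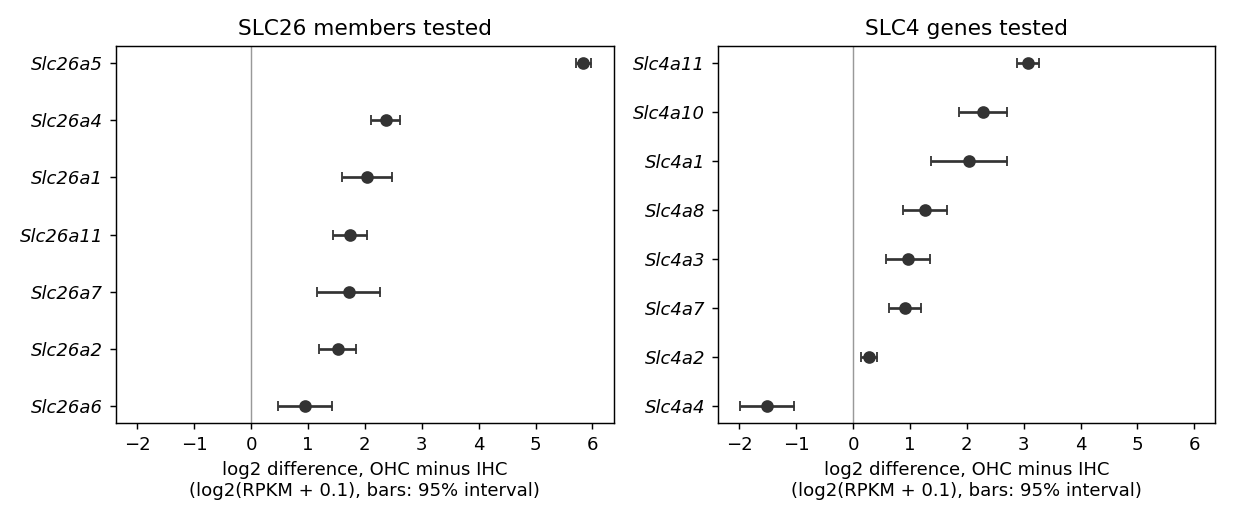
Log2 difference, OHC minus IHC, with its 95% interval for the 7 SLC26 members tested (left) and the 8 SLC4 bicarbonate transporters tested (right). Slc26a5 stood at 5.84, and the other members lay between 0.95 and 2.36. Slc4a4 was the one gene of both families below 0, and Slc26a1, Slc4a1 and Slc4a10 were tested through their OHC values alone.

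The order of levels was nearly the same in both cell types. In OHCs the members ran from Slc26a5 through Slc26a4, Slc26a11 and Slc26a2 to Slc26a6, Slc26a7 and Slc26a1, and then to Slc26a8 and Slc26a10. The ranges of Slc26a6 and Slc26a7 overlapped, as did those of Slc26a8 and Slc26a10, and all other neighbours lay apart. In IHCs the order was Slc26a5, Slc26a4, Slc26a11, Slc26a2, Slc26a6, Slc26a7, Slc26a8 and Slc26a1, and the pairs of Slc26a2 with Slc26a6 and of Slc26a7 with Slc26a8 overlapped. The step below prestin set both cell types apart: Slc26a5 was 50.4 times Slc26a4 in OHCs and 4.66 times Slc26a4 in IHCs. From Slc26a4 to Slc26a11 the step was 2.68 times in OHCs and 1.77 times in IHCs, and from Slc26a11 to Slc26a2 it was 3.15 times in OHCs and 3.0 times in IHCs.

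Prestin took different shares of the SLC26 transcripts. Of the summed RPKM of the 10 members, Slc26a5 made up 96.7%, 96.8% and 97.0% in the OHC libraries, against 70.0% and 69.7% in the IHC libraries. The shares within a cell type lay within 1 percentage point, and the gap between the means of 96.8 ± 0.135% (SD, n = 3) and 69.8 ± 0.184% (SD, n = 2) was 27.0 percentage points. By an exact permutation test over libraries, two-sided, p was 0.1, the smallest that 10 splits of 3 against 2 libraries allow. The other 9 members summed to 18.6, 18.1 and 17.2 RPKM in the OHC libraries, against 4.34 and 3.88 RPKM in the IHC libraries. That sum was 4.37 times higher in OHCs (exact permutation p = 0.1), and Slc26a4 was the largest part of it in all 5 libraries.

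**Figure D3:**
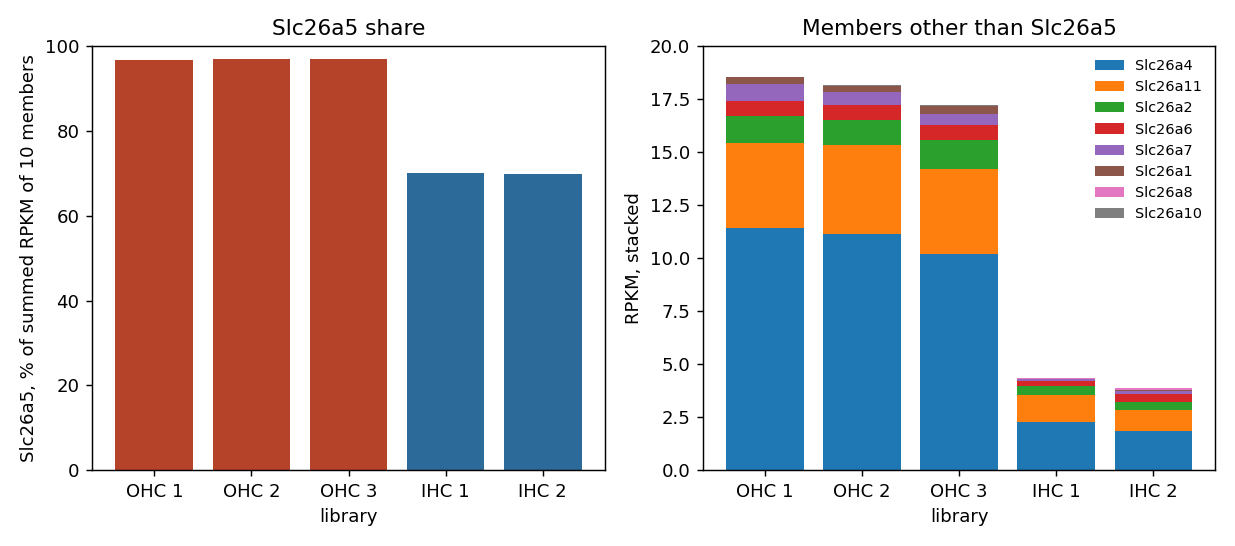
Left, Slc26a5 as a percentage of the summed RPKM of the 10 SLC26 members in each library. Right, RPKM of the other members, stacked. The OHC libraries held 96.7% to 97.0% and the IHC libraries 69.7% to 70.0% of the sum as Slc26a5, and the rest summed to 17.2 to 18.6 RPKM in OHCs and 3.88 to 4.34 RPKM in IHCs.

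The low level of Slc26a5 in IHCs was set beside that of other genes that mark OHCs, a list chosen with earlier results of these data known. Slc26a5 in IHCs was 1.73% of its OHC mean. The 10 OHC markers stood at 0.929% to 10.2% of their own OHC means in IHCs, with Ocm (oncomodulin, a calcium buffer of OHCs) at 2.96%, Chrna10 (a subunit of the efferent acetylcholine receptor) at 2.26% and Necab2 (a calcium-binding protein) at 0.929%. The value of Slc26a5 thus lay inside the range of these markers and below that of most of them. Whether these traces came from IHCs themselves or from OHC RNA in their libraries was not tested.

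The profile of Slc26a5 over the 5 libraries was compared with that of 6937 genes of at least 5 RPKM in a cell type, by the distance of their centred log2 values. The nearest was Necab2 (distance 0.061), with 12.1, 11.9 and 11.9 RPKM in the OHC libraries, against 0.129 and 0.0936 RPKM in the IHC libraries. It was followed by Krt18 (keratin 18, 0.369), Fam57b (0.377), Fam159b (0.445) and Plk2 (polo-like kinase 2, 0.498). These genes were picked for their closeness to Slc26a5, so that their OHC libraries lay above both IHC libraries follows from the choice. Their means were 9.81 RPKM (Fam159b) to 37.6 RPKM (Krt18) in OHCs and 0.0546 RPKM (Fam159b) to 0.698 RPKM (Krt18) in IHCs. Fam159b passed the filter on low values through the OHC libraries alone. In IHCs, Necab2, Fam57b and Fam159b had 10, 17 and 3 reads, and their means were near or below the pseudocount of 0.1 RPKM. Their ratios of means, taken without it, were 108, 106 and 180, against 57.7 for Slc26a5, 53.9 for Krt18 and 57.4 for Plk2. The distances of Necab2, Fam57b and Fam159b thus depend on the pseudocount. The distances of the other SLC26 members tested ran from 3.81 for Slc26a4 to 5.37 for Slc26a6 on this scale. That of Slc26a1, 4.17, depends on the pseudocount: without one its log2 ratio of means was 5.79, against 5.85 for Slc26a5, on 1 read in IHCs.

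**Figure D4:**
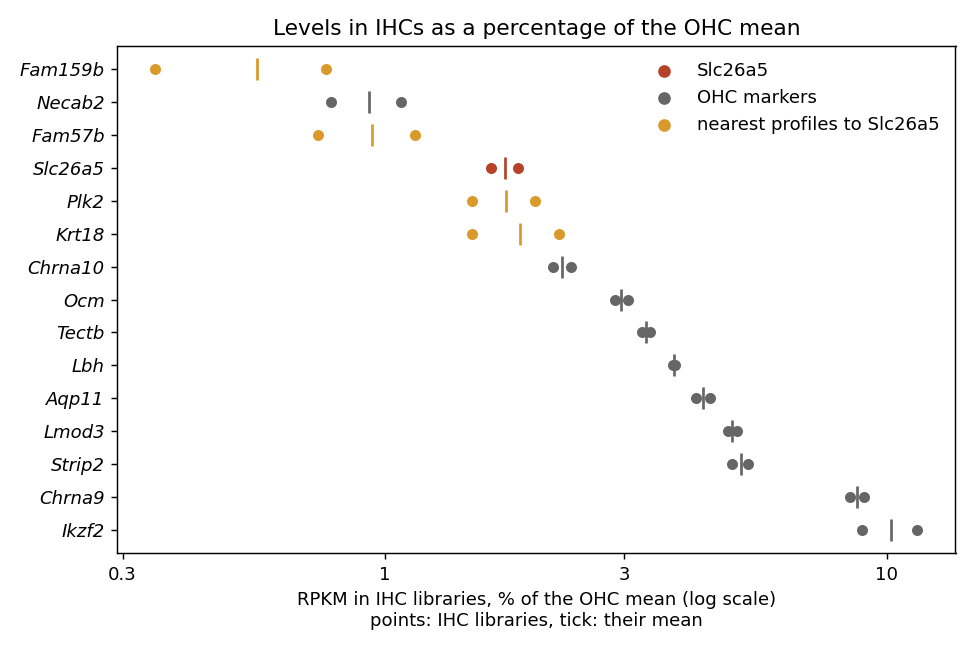
Level in each of the 2 IHC libraries as a percentage of the OHC mean (logarithmic axis) for Slc26a5, 10 OHC markers and the 5 nearest profiles, with a tick at the mean of both libraries; Necab2 belongs to both sets. Slc26a5 stood at 1.73%, between Necab2 at 0.929% and Ikzf2 at 10.2%.

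Genes that handle the same ions as the SLC26 exchangers were looked up by family. Of 10 SLC4 bicarbonate transporters, 8 were tested, 7 were higher in OHCs and 1 in IHCs (median log2 difference 1.12); Slc4a1 and Slc4a10 are among the 7 through their OHC values alone. Slc4a11, known as a transporter of borate, protons and water, had the highest mean of the list in OHCs but not in IHCs, at 9.45 ± 0.190 RPKM in OHCs (SD, n = 3) and 1.04 ± 0.108 RPKM in IHCs (SD, n = 2), with a log2 difference of 3.07. Slc4a10, a sodium-driven bicarbonate transporter of neurons, was at 0.856 RPKM in OHCs and 0.0951 RPKM in IHCs (log2 difference 2.29). Slc4a4, the electrogenic sodium bicarbonate cotransporter, ran the other way at 0.131 RPKM in OHCs and 0.557 RPKM in IHCs (log2 difference -1.51). Slc4a1, the anion exchanger of red cells, had 0.320 ± 0.105 RPKM in OHCs (SD, n = 3) and was listed at 0 in both IHC libraries.

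Carbonic anhydrases, which make the bicarbonate that these proteins carry, showed 8 of 11 tested genes higher in OHCs, 1 higher in IHCs and 2 that did not pass (median log2 difference 0.98). Of the 8, Car5b and Car10 passed the filter through the OHC libraries alone. Car2, a cytosolic enzyme, had the highest mean in OHCs but not in IHCs, at 369 ± 6.06 RPKM in OHCs (SD, n = 3) and 121 ± 5.77 RPKM in IHCs (SD, n = 2). The largest differences were those of Car12, an enzyme of the cell surface, at 5.08 RPKM in OHCs and 0.196 RPKM in IHCs (log2 difference 4.11), and of Car15, at 2.33 RPKM in OHCs and 0.183 RPKM in IHCs (log2 difference 3.05). The one gene higher in IHCs was Car14, a membrane enzyme, at 214 RPKM in OHCs and 295 RPKM in IHCs (log2 difference -0.47). Car10, which has no catalytic activity, was at 0.843 RPKM in OHCs and 0.0772 RPKM in IHCs (log2 difference 2.41).

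Genes of sulfate uptake, activation and release went both ways. Of 17 tested, 10 were higher in OHCs, 4 higher in IHCs and 3 did not pass, with a median log2 difference of 0.19. Slc13a4, a sodium sulfate cotransporter, was at 0.456 RPKM in OHCs and 0.0632 RPKM in IHCs (log2 difference 1.78), and passed the filter through the OHC libraries alone. The tyrosylprotein sulfotransferases moved in opposite directions: Tpst2 was at 39.7 RPKM in OHCs and 14.4 RPKM in IHCs (log2 difference 1.45), and Tpst1 at 5.48 RPKM in OHCs and 20.3 RPKM in IHCs (log2 difference -1.87). Slc35b2, which carries activated sulfate into the Golgi, had the highest mean in both cell types, at 64.3 RPKM in OHCs and 56.2 RPKM in IHCs.

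Genes reported to act with prestin went both ways. Of 12 such partners and lateral wall genes, 9 were tested, 4 were higher in OHCs and 5 higher in IHCs (median log2 difference -0.27). Ceacam16, a protein of the tectorial membrane, was at 3292 RPKM in OHCs and 1756 RPKM in IHCs (log2 difference 0.91). Calm2, which encodes calmodulin, was lower in OHCs, at 4440 RPKM in OHCs and 12908 RPKM in IHCs (log2 difference -1.54). Cftr, the chloride channel that SLC26 exchangers bind in other epithelia, and Slc2a5, a fructose transporter once placed in the OHC wall, were listed at 0 in all libraries.

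Among 8 genes reported to regulate Slc26a5 or the identity of OHCs, 7 were tested, 4 were higher in OHCs and 3 higher in IHCs. Ikzf2 (Helios, an Ikaros factor of OHCs) was at 5.31 ± 0.412 RPKM in OHCs (SD, n = 3) and 0.542 ± 0.0976 RPKM in IHCs (SD, n = 2), with a log2 difference of 3.08. Thrb, a thyroid hormone receptor, was at 4.33 RPKM in OHCs and 2.49 RPKM in IHCs (log2 difference 0.78), and Rbm24, an RNA-binding protein, at 140 RPKM in OHCs and 91.2 RPKM in IHCs (log2 difference 0.62). Tbx2, which is needed for the IHC fate, was at 2.75 RPKM in OHCs and 78.0 RPKM in IHCs (log2 difference -4.78). Gata3, with the highest mean over the 5 libraries, was at 115 RPKM in OHCs and 149 RPKM in IHCs, and Insm1, an early factor of developing OHCs, was listed at 0 throughout.

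Red cell, leukocyte and stria vascularis genes were mostly higher in OHCs, as the members were. Of 8 red cell genes tested, 8 were higher in OHCs, with summed levels of 1928 to 2030 RPKM in OHC libraries and 460 to 481 RPKM in IHC libraries; Slc4a1 and Car2 belong to this list as well, and 2 of the 8 passed the filter through the OHC libraries alone. Leukocyte genes summed to 107 to 111 RPKM in OHC libraries and 7.55 to 7.88 RPKM in IHC libraries, with 6 of 8 higher in OHCs (2 through OHC libraries alone), 1 higher in IHCs (through IHC libraries alone) and Ptprc at 0.0127 RPKM in OHCs and 0 in IHCs. Genes of the stria vascularis summed to 272 to 278 RPKM in OHC libraries and 34.8 to 35.2 RPKM in IHC libraries, most of it Kcnj13 at 207 RPKM in OHCs and 1.72 RPKM in IHCs, with 7 of 10 higher in OHCs, 3 of these through the OHC libraries alone, and 0 higher in IHCs. For outer sulcus and root cells, where pendrin is known, the sums were 239 to 252 RPKM in OHC libraries and 205 to 214 RPKM in IHC libraries, with 4 of 7 higher in OHCs and 2 higher in IHCs. Most of these sums was Kcnj16, which did not pass, at 190 RPKM in OHCs and 177 RPKM in IHCs. Among the others, Aqp5 was at 16.4 RPKM in OHCs and 0.627 RPKM in IHCs, and Lgr6 at 0.0988 RPKM in OHCs and 4.15 RPKM in IHCs.

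Supporting cell genes summed to 1205 to 1251 RPKM in OHC libraries and 1488 to 1492 RPKM in IHC libraries. Of 14 tested, 5 were higher in OHCs (1 through OHC libraries alone) and 7 higher in IHCs. Epyc was the largest part of each sum, at 603 RPKM in OHCs and 455 RPKM in IHCs. Single genes split far more than the sums. Fgfr3 was at 32.2 RPKM in OHCs and 0.705 RPKM in IHCs, and Slc1a3 at 7.67 RPKM in OHCs and 131 RPKM in IHCs. Tectb, at 26.5 RPKM in OHCs and 0.878 RPKM in IHCs, is among the OHC markers as well. Fibrocyte genes summed to 817 to 833 RPKM in OHC libraries and 752 to 755 RPKM in IHC libraries (7 of 11 higher in OHCs, 2 of these through OHC libraries alone, and 2 higher in IHCs). Gjb2, which is among the supporting cell genes as well, gave 119 to 122 RPKM of the OHC sums and 404 to 407 RPKM of the IHC sums. Genes of neurons and Schwann cells summed to 39.2 to 39.7 RPKM in OHC libraries and 66.0 to 69.0 RPKM in IHC libraries (4 of 9 higher in OHCs, 3 higher in IHCs, Prph at 0). Vessel genes summed to 0.326 to 0.549 RPKM in OHC libraries and 0.0305 to 0.0854 RPKM in IHC libraries, and 2 of 2 tested were higher in OHCs, both through the OHC libraries alone. Hair cell markers common to both types summed to 2360 to 2440 RPKM in OHC libraries and 2207 to 2213 RPKM in IHC libraries (3 of 8 higher in OHCs, 4 higher in IHCs). The part of these other cells in the levels of Slc26a4 and the weaker SLC26 members was not tested.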

How the data were processed

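RNA was measured in 3 OHC and 2 IHC libraries of 2 lanes each. The deposited values are RPKM: the authors mapped paired reads to GRCm38 (mm10) with CLC Genomics Workbench, derived gene levels with HTSeq count and scaled them by exon length and reads; versions are not given in the sources used here. The labels and the methods of the study name different RNA and cDNA kits, and the methods give a slightly wider age range than the labels. Lanes were averaged per library, and genes of at least 0.1 RPKM in at least 2 libraries (16462 of 48440) were kept. Levels were fitted as log2(RPKM + 0.1) with limma 3.58.1 in R 4.3.3, with the variance trend, OHC minus IHC, two-sided, with Benjamini-Hochberg adjustment at 0.05 and 3 residual degrees of freedom. A fold on this scale understates the change of low genes. P-values measure the spread between these pooled libraries.

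Whole reads were recovered for all 19961 detected genes, within 0.001 reads or, for large counts, within a small fixed part of the count. For 5726 genes the annotation length gave no whole reads, and the shortest length up to 120000 bases that did was used. No molecular identifiers were used, reads of 1 molecule can repeat, and intervals and the floor of 3 reads per library cover counting error only. Positions and transcripts came from GENCODE M21 of GRCm38, which lacks 382 of the identifiers, and promoters from RefSeq on GRCm38.p6. Coding sequences of the members were aligned globally in place of proteins. The fit was tested on simulated data.

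The members and lists were chosen with earlier results of these data known. Named genes are all 10 members, from every other list the gene of highest mean and at most 4 called genes, those of largest difference, the 5 profiles nearest to Slc26a5, and genes whose exons overlap a member. Neighbours of members, Car14, Car5b, Ptprc and Prph were named after their values were seen. Some genes that the rule names are not reported here. Alternatives were other pseudocounts, filters and scalings, single lanes, all 10 lanes with duplicateCorrelation, no trend, a robust prior, a replicate block, limma-voom on recovered reads, ratios without a pseudocount and leaving out each library. Other steps used scipy 1.17.1, pandas 2.3.3 and numpy 2.4.6 in Python 3.11.15, with figures from matplotlib 3.10.9.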

Additional observations from a re-analysis of the deposited data

How the results depend on the processing

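The 7 members tested gave 137 values under up to 20 alternatives, of which 0 changed direction. The ratios of means without a pseudocount are among these values and have no p-value. Of the other values 1 lost its call: Slc26a6 from the second lanes alone (log2 difference 0.89, adjusted p = 0.0532, limma). The number of members higher in OHCs was 4 with a filter of 1 RPKM, where 4 were tested, 6 from the second lanes alone and 7 otherwise, and 0 were higher in IHCs throughout. The log2 difference of Slc26a5 lay between 5.71 and 5.93. Weak members depended on the pseudocount: with 1 RPKM the log2 differences were 0.41 for Slc26a1, 0.53 for Slc26a7, 0.73 for Slc26a2 and 0.37 for Slc26a6, and without one the ratios of means gave 5.79, 2.39, 1.75 and 1.13. By limma-voom on recovered reads Slc26a1 was at 5.10. Genes higher in OHCs numbered 3991 to 5898 and genes higher in IHCs 4337 to 5867 over all alternatives, and 4632 to 5651 and 4337 to 5753 without each library in turn. Without each library in turn the members higher in OHCs numbered 7, Slc26a5 lay between 5.75 and 5.93, and its share of the SLC26 sum between 96.8% and 96.9% in OHCs and between 69.7% and 70.0% in IHCs. From the first and the second lanes alone the IHC share was 69.4% and 70.2%.

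Libraries with the same number had correlations of deviations of 0.013 and -0.020. With 2 IHC libraries the deviations are mirror images of each other, so this check cannot decide whether the numbers pair the libraries. The methods of the study describe picking both cell types from each mouse, and which libraries share mice is not given in the sources used here. With the replicate number as a block, 4985 genes were higher in OHCs and 5060 in IHCs, 7 members were higher in OHCs, and Slc26a5 was at 5.84. Without the second lanes of OHC 1, IHC 1 and IHC 2, chosen after seeing the data, 7 members were higher in OHCs and Slc26a5 was at 5.87. Depth limits Slc26a3, Slc26a8 and Slc26a10, with at most 9 reads in a library.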
